A study of Mus musculus with 16 samples.

Results

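The regions described here are the narrower stretches of liver chromatin that carried an H3K27Ac peak in every one of 15 mice. Overlapping or adjoining peaks of all 15 peak lists on chromosomes 1 to 19 were merged into 55617 regions, of which 11874 (21.35%) overlapped a peak in each list. The 9550 of these with a merged width below 15000 bp are the members, or 17.17% of all merged regions and 80.43% of the common ones, and the other 2324 common regions are called broad. Members were thus chosen by measured values, presence in all lists and merged width, so neither is a finding. Differences between animals in the width and score of the peaks inside a member are what was compared.

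H3K27Ac ChIP-seq had been performed on 5 WT livers (Mdr2-WT, strain FVB.129P2 by the labels and FVB/NJ by the study's methods), 5 inflamed livers of Mdr2-KO mice (FVB.129P2-Abcb4tm1Bor/J) and 5 hepatocellular carcinoma (HCC) nodules of Mdr2-KO mice, 1 animal per library. WT livers and nodules were taken at 14 to 19 months of age and inflamed livers at 7 to 8 months, so age and disease stage cannot be told apart between inflamed livers and either other group. All 15 animals had been given clodronate liposomes for 48 h to remove macrophages, at 50 μg per g of body weight by the labels, while the study's methods give another amount. In Mdr2-KO animals the knockout is carried by all cells of the animal. The tissue was not sorted, so a change in cell composition and a change of acetylation within a cell type cannot be told apart.

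Acetylation of histone H3 at lysine 27 is placed at promoters and enhancers by coactivators that bound transcription factors recruit, and it marks those elements as active. Sites acetylated in many states of a tissue include promoters of genes that most cells use, whereas distal enhancers vary more with cell state. Mdr2 (Abcb4) moves phospholipid from hepatocytes into bile, and without it bile acids injure the bile ducts, with chronic inflammation, fibrosis and later liver cancer. The coordinates below are those of mm9, and which members lie over promoters or named genes was not analysed here, because an annotation of that build was not used. None of the merged regions in the windows around Cyp2c37, Abcc4, Cyp4a14 and Epcam that the study displayed was a member.

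Members had a median merged width of 6019.5 bp, with the middle 50% between 4096 and 9166 bp. Each animal contributed 10109 to 11444 peaks to them. These made up 27.1 to 30.7% of the peaks on these chromosomes in inflamed livers, 35.6 to 40.0% in WT livers and 26.0 to 41.5% in nodules. In inflamed livers every share was lower than in every WT liver, and the inflamed lists were also longer, with 35901 to 40909 peaks against 26390 to 30268. Regions under the same width limit with a peak in 14 of the 15 animals numbered 2349. Of these, 753 lacked a peak only in HCC 124711 and 670 only in HCC 123390, against 5 to 11 for any inflamed liver. By chromosome, members were from 13.71% of the merged regions on chromosome 1 to 21.03% on chromosome 17.

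The bases that all animals shared were a smaller part of a member than its merged width. The stretch under a peak in all 15 animals, the core, had a median of 2425.5 bp, or 46.1% of the merged width, against 30.0% in broad regions. The merged width, which the rule used, is the denominator of this share, so the difference from broad regions and the fall of the share with width are a description only and follow in part from the rule. In 4051 members (42.42%) the core was at least 50% of the merged width. In 132 members (1.38%) no base was under a peak in every animal, so those animals had peaks in different places of one merged region. Within a group the median core share was 55.6% among the 5 WT livers, 61.3% among the inflamed livers and 51.3% among the nodules. The core share fell with width, from a median of 58.1% in the 2241 members below 4000 bp to 29.8% in the 1936 members of 10000 bp or more. A single uninterrupted peak in every animal was seen in 6367 members (66.67%). More than 1 peak was found in 7.29 to 12.9% of members in WT livers, in 12.3 to 14.8% in inflamed livers and in 5.6 to 17.4% in nodules, lowest in HCC 123390 and highest in HCC 125278. Across the 15 animals the widest peak of a member was a median of 2.03 times the narrowest.

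The members with the largest core share were nearly the same stretch in all animals. At chr4:149162216-149176774 the core was 12761 bp, 87.7% of the merged width. Its peaks were 13081 to 14390 bp wide in WT and 12982 to 13519 bp in inflamed livers. In nodules they measured 13180 to 13964 bp, other than HCC 124711 with 8633 bp as the wider of 2 peaks. The next were chr15:78851569-78863011 (core 87.5%) and chr11:120430859-120445026 (87.2%). The first of these held a single peak of 10015 to 11443 bp in each of the 15 animals. At the other end, chr9:72950006-72955600 had a core of only 4 bp of 5595 bp, chr8:23145459-23160254 of 11 bp of 14796 bp and chr18:4964057-4972906 of 20 bp of 8850 bp. At the first of these, each animal had 1 peak of 2384 to 5381 bp, and all 15 peaks together shared just these 4 bp.

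The score of each peak, as given by the peak caller, was used only as a rank within its own list, from 0 for the weakest to 100 for the strongest peak of the animal. Peaks that share a score share a percentile, and the many peaks tied at 3100, 9.52 to 24.5% of a list, could not be ordered among themselves. Members had a median percentile of 74.7 over animals, and 4075 (42.67%) were at 50 or above in each of the 15 lists. Only 25 members (0.262%) were below 50 in all lists. A score of at least 3100 in every animal was found in 375 members (3.93%) and in 354 broad regions (15.2%), and 2399 members (25.12%) reached it in no animal. Members had to hold a called peak in every list, and the best-scoring peak of each animal in a region was taken. Both favour high percentiles, so these levels follow in part from the rule and are a description only. Within a member the percentile varied widely, with a median range of 43.1 points among animals.

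Among the strongest members was chr14:21041004-21053239, which held 1 peak of 9296 to 12236 bp in each animal. Its percentiles were 87.5 to 92.2 in WT livers, 91.7 to 94.1 in inflamed livers and 92.3 to 99.8 in nodules. The others with the highest lowest percentile were chr11:69802159-69815922 and chr9:21724928-21733536, with the same lowest value of 87.5. That value is the percentile of the tied top score in WT 130748. At chr14:21041004-21053239 every animal other than HCC 124711 held the tied top score of its list. Differences in percentile among those animals therefore reflect the share of tied peaks in each list. The weakest member by median percentile was chr6:145563995-145566412, with 1 peak of 1370 to 2324 bp in each animal. Its percentiles were 4.87, 17.9, 8.88, 10.1 and 12.6 in WT livers, 12.7, 11.7, 7.17, 9.19 and 25.1 in inflamed livers and 8.12, 30.7, 39.7, 3.45 and 32.9 in nodules. The 3 groups overlapped, and the highest values were those of 3 nodules. The next weakest were chr5:136131399-136134845 and chr18:5025575-5036080. The latter had no core, and its percentile reached 92.3 in HCC 125278 while it was at most 41.9 in the other animals.

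At the width limit itself, the widest members were chr11:86157928-86172915 (14988 bp), chr11:21458544-21473526 (14983 bp) and chr1:38173443-38188411 (14969 bp). The narrowest broad regions were chr7:82752620-82767623 (15004 bp), chr7:30028660-30043665 (15006 bp) and chr10:127682369-127697376 (15008 bp). Core shares were 15.1, 13.7 and 9.09% for the former and 33.9, 36.7 and 31.2% for the latter. In all 3 members just inside the limit HCC 123390 had a peak of at least 13207 bp, wider than in any other nodule.

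A pair of libraries stood apart from their groups over the members, WT 130748 and HCC 124711. Both placed narrow members unusually high. Of the members, 970 had a top score in these 2 animals and in none of the other 13, against 25 for the next pair of animals. Those 970 had a median merged width of 3921.5 bp. The reverse, a top score in the other 13 animals and in neither of these, was found for 79 members with a median width of 11074 bp. In members below 4000 bp the median percentile was 87.5 in WT 130748 and 87.1 in HCC 124711, against 47.6 to 52.7 in the other WT livers and 44.2 to 69.9 in the other nodules. In members of 10000 to 15000 bp it was 75.4 and 69.6, lower than in each of the other 13 animals (81.5 to 92.3).

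**Figure D1:**
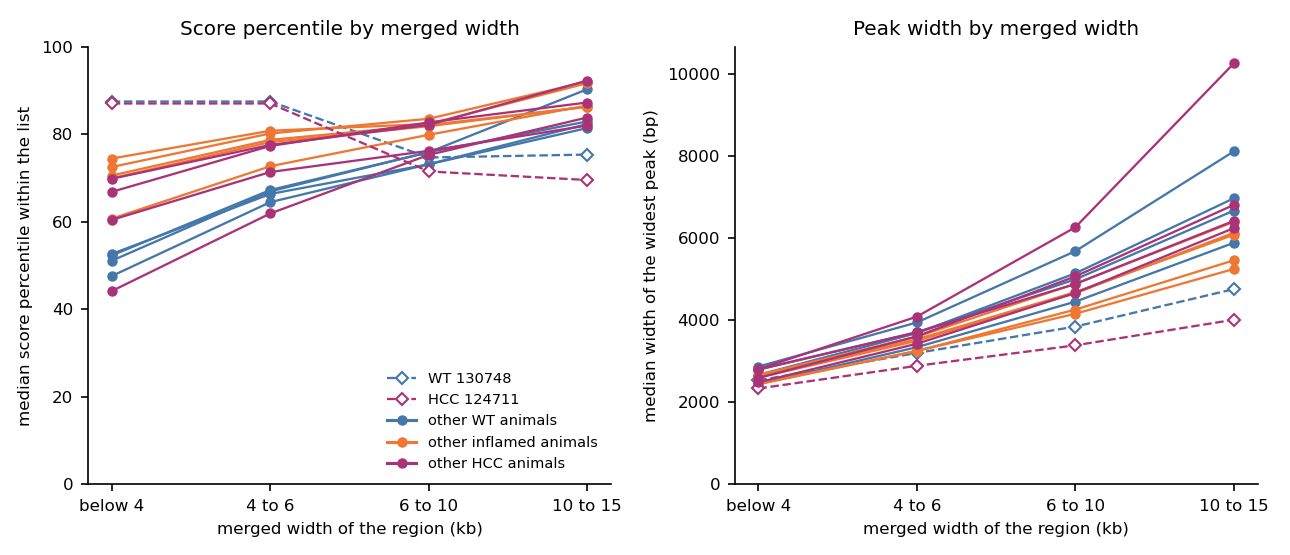
Median score percentile within each animal's list (left) and median width in bp of its widest peak (right) over the members of 4 classes of merged width in kb, with 1 line per animal coloured by group and open diamonds for WT 130748 and HCC 124711. The percentiles of 13 animals rise from the narrowest to the widest class, whereas those of WT 130748 and HCC 124711 fall from 87.5 and 87.1 to 75.4 and 69.6, and their peaks are the narrowest in the widest class.

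The ranks of the 9550 members gave the same picture. Spearman's rho between WT 130748 and HCC 124711 was 0.852, while WT 130748 reached 0.253 to 0.385 with the other WT livers. HCC 124711 reached 0.000631 to 0.445 with the other nodules. Mean rho over pairs was 0.861 among inflamed livers, 0.666 among WT livers and 0.481 among nodules. These correlations are across regions that share a library, a depth and a peak caller, and are given as a description. HCC 124711 also had the narrowest peak of all animals in 3344 members, and HCC 123390 had the widest in 3122. Counts of calls below are given with all 15 animals and again without WT 130748 and HCC 124711. Other values below are those of all 15 animals unless stated. Why the 2 libraries stand apart was not tested. The study kept some outlying samples out of a principal component analysis without naming them, and no animal was removed here from the fits of all animals.

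The width of the widest peak per member did not separate the groups as a whole. The median over members was 3921, 4312, 3968.5, 3531 and 3225.5 bp in the WT livers. It was 3713, 3445, 3684, 3373.5 and 3817.5 bp in the inflamed livers. It was 2907, 3646.5, 3881.5, 3855 and 4576.5 bp in the nodules. The lowest value was that of HCC 124711 and the highest that of HCC 123390, and the 3 groups overlapped. Group means were 3792 ± 420 bp in WT and 3607 ± 189 bp in inflamed livers (SD, n = 5 each).

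The median percentile of members in the full lists was 66.9, 68.1, 68.8, 65.4 and 87.5 in WT livers, with 87.5 in WT 130748. It was 78.9, 78.5, 80.3, 80.3 and 74.3 in inflamed livers and 74.4, 78.6, 78.3, 71.5 and 65.1 in nodules. Each inflamed liver was above the WT livers other than WT 130748. When every list was shortened to its best 26390 peaks, the length of the shortest list, the values were 66.9, 65.8, 64.3, 63.7 and 86.4 in WT livers and 69.7, 69.0, 69.4, 71.1 and 65.0 in inflamed livers. The nodules then had 74.1, 68.2, 64.9, 67.5 and 62.0, and the groups overlapped. A percentile in a full list depends by construction on how many weaker peaks the list holds. In equal lists all 9550 members were kept, and a member whose best peak lay outside the best 26390 of an animal was set to 0 there, also by construction. This held for 0 to 88 members per WT liver, 128 to 209 per inflamed liver and 24 to 358 per nodule, and for 1076 members in at least 1 animal. In the shortened lists, merged anew, 8511 regions met the rule that defines members.

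**Figure D2:**
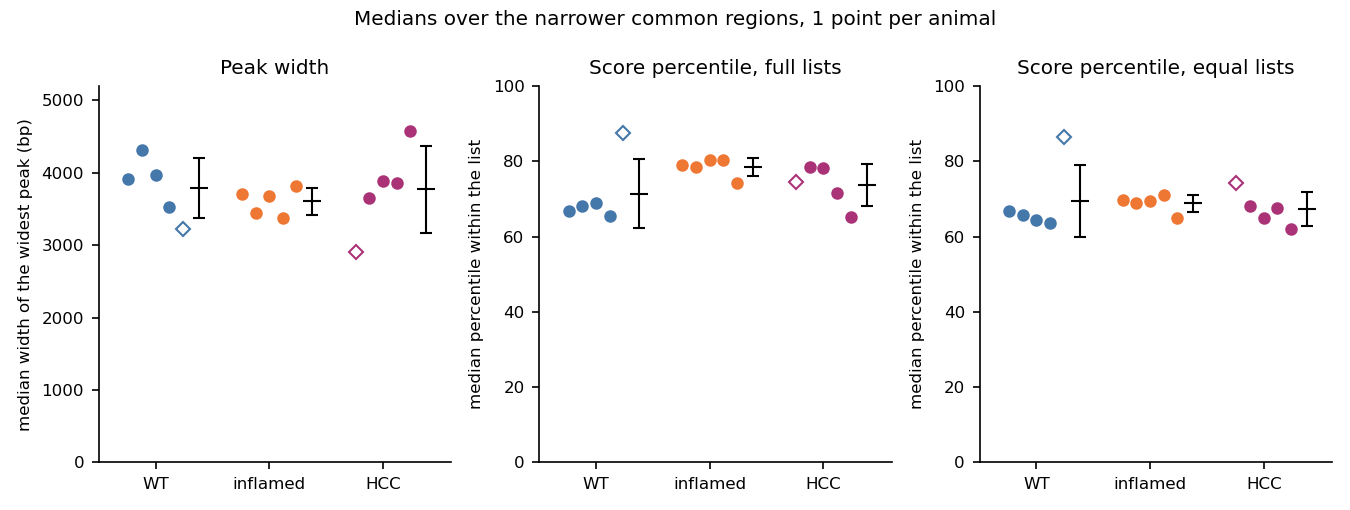
Median over the 9550 members in each of 15 animals of the width in bp of the widest peak (left) and of the score percentile in full lists (middle) and in lists of equal length (right), with 1 point per animal, open diamonds for WT 130748 and HCC 124711, and the mean with SD of each group of 5 as a black bar. The inflamed livers (74.3 to 80.3) lie above the WT livers other than WT 130748 (65.4 to 68.8) in full lists, and overlap the other groups in equal lists.

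Inflamed livers were compared with WT livers first. In the limma fit over all 11874 common regions with Benjamini-Hochberg adjustment, the widest peak was wider in inflamed livers in 91 members and narrower in 157 at an adjusted p below 0.05. That is 2.6% of members, where 3.25% of all common regions were called (1.15% wider and 2.1% narrower). The median log2 difference over members was -0.07, beside -0.08 over all common regions. Percentages of common regions in brackets here and below are the share of all 11874 common regions that met the same criterion. They stand beside a count of members for comparison and are not its share. With each animal centred on its own median the counts were 262 wider and 196 narrower (5.8% of common regions called). Centring moves all regions of an animal alike, so it shifts the balance of directions by construction. Without WT 130748 and HCC 124711 the counts were 278 and 640 (11.3% of common regions), and with centring as well 622 and 465 (13.2%). Of the 91 and 157 members, 91 and 156 remained called in the same direction without both libraries. Leaving out 1 animal at a time gave 78 (without inflamed 149198) to 492 (without HCC 124711) members called in either direction. The 5 and 5 animals did not overlap in 385 members with wider peaks in every inflamed liver (4.03% of members, 4.34% of common regions). They did not overlap in 662 with narrower peaks (6.93% of members, 8.17% of common regions).

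Wider peaks in inflamed livers ranged up to 3.59-fold among the called members with no overlap. At chr19:12544677-12553980 the peak was 2050, 2857, 1954, 1906 and 1954 bp wide in WT livers. It was 7079, 7259, 8480, 7005 and 8274 bp in inflamed livers. Nodules had 1900, 6496, 9160, 6893 and 6336 bp. Every inflamed liver and 4 of the 5 nodules exceeded every WT liver, while HCC 124711 lay with the WT livers. The log2 difference between inflamed and WT was 1.84 ± 0.31 (SE; limma, adjusted p = 0.00713), each animal held 1 peak there, and the percentile did not pass the test (adjusted p = 0.137). At chr10:76667284-76681630 inflamed livers had 1 peak of 13094 to 14347 bp, where WT livers had 2 or 3 peaks with the widest from 3284 to 8641 bp (log2 difference 1.64 ± 0.31, limma adjusted p = 0.0127). Here the groups differed in whether neighbouring peaks were joined. The summed length under peaks was 13094 to 14347 bp in inflamed against 8795 to 12502 bp in WT livers. At chr10:94854928-94863836 peaks measured 7498 to 8909 bp in inflamed and 2016 to 3142 bp in WT livers (adjusted p = 0.0135), and this call was lost when all peaks of a region were summed (adjusted p = 0.181).

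Narrower peaks in inflamed livers reached larger differences. At chr4:135559107-135573090 WT livers had peaks of 11008, 12456, 13753, 10409 and 8769 bp. Inflamed livers had 2436, 1978, 2396, 2113 and 3043 bp. Nodules had 3070, 6302, 1951, 2963 and 10449 bp. The WT and inflamed ranges were far apart, and nodules spread over both, with HCC 123390 inside the WT range. The log2 difference was -2.24 ± 0.35 (SE; limma, adjusted p = 0.00373). At chr17:29549090-29563426 the WT peaks were 7706 to 14337 bp, the inflamed peaks 2396 to 3162 bp and the nodule peaks 4188 to 13915 bp (log2 difference -1.77 ± 0.26, adjusted p = 0.00316). This member also passed for nodules against inflamed livers in the opposite direction (1.47 ± 0.26, adjusted p = 0.016). At chr6:120993282-121001656 the WT peaks of 6664 to 7356 bp stood against inflamed peaks of 2304 to 2674 bp, and nodules divided into 3 at 2569 to 2858 bp and 2 at 6501 and 8375 bp.

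**Figure D3:**
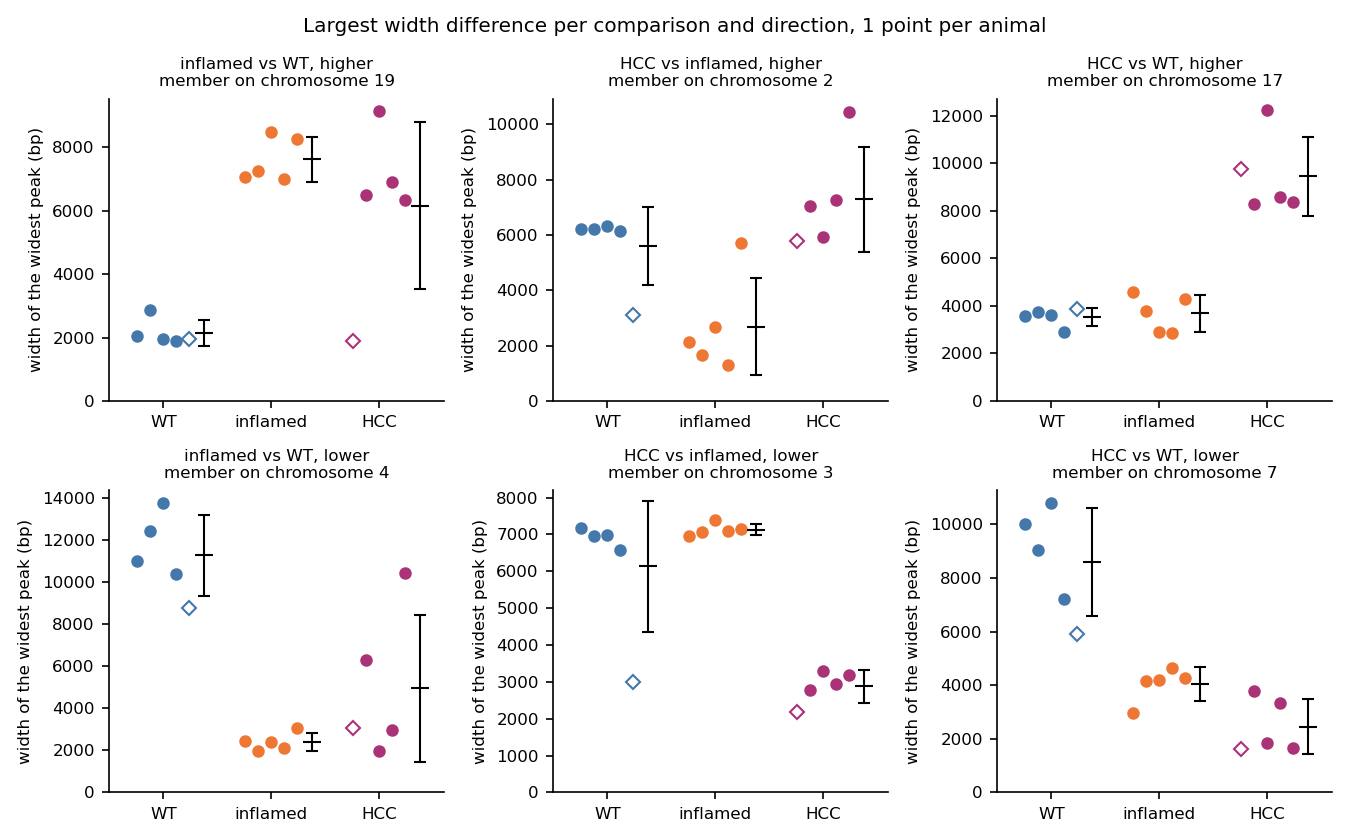
Width in bp of the widest peak in the member with the largest called difference per comparison (columns) and direction (upper row higher, lower row lower in the first-named group), with 1 point per animal in WT, inflamed and HCC tissue, open diamonds for WT 130748 and HCC 124711, and the mean with SD of each group of 5 as a black bar. The members were chosen for groups that do not overlap, and at the chromosome 4 member nodules run from 1951 to 10449 bp, across the WT and inflamed values.

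Score percentiles gave more calls than widths, mostly upward in the full lists. The best peak ranked higher in inflamed than in WT livers in 824 members and lower in 76 (limma, adjusted p below 0.05), 9.42% of members where 8.73% of all common regions were called (8.03% higher and 0.699% lower). The median difference over members was 9.05 points, beside 7.37 points over all common regions. In equal lists the members called were 318 higher and 311 lower (6.27% of common regions), and all 318 and 76 of the 311 were among those called in the full lists. Of the 318 and 311, 25 and 163 had at least 1 animal set to 0, so the balance of directions in equal lists rests in part on values set to 0. Without WT 130748 and HCC 124711 the equal lists gave 1061 higher and 758 lower (17.6% of common regions), and the full lists 3431 and 325 (31.3 and 3.3%). In full lists the animals of the 2 groups did not overlap in 1233 members that ranked higher in inflamed livers (12.9% of members, 12.5% of common regions). They did not overlap in 168 that ranked lower (1.76% of members, 1.67% of common regions). These counts depend on list length and do not cover equal lists. Leaving out 1 animal at a time gave 312 (without inflamed 149198) to 2705 (without WT 130748) members called in full lists.

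The largest upward difference was at chr7:104501763-104507787, with 1 peak per animal. Its percentile was 7.82, 20.3, 34.7, 2.18 and 26.9 in WT livers. It was 83.3, 83.5, 92.1, 99.7 and 70.7 in inflamed livers and 6.00, 64.4, 94.0, 43.0 and 32.5 in nodules. Thus a peak among the weakest of WT livers was among the stronger of inflamed livers, without overlap, and nodules ranged over nearly the whole scale. The difference was 67.5 ± 12.1 points (SE; limma, adjusted p = 0.00378), while the width did not pass (adjusted p = 0.419). At chr4:128707849-128714779 percentiles ran from 0.0985 to 33.6 in WT and from 79.2 to 92.1 in inflamed livers (difference 65.0 ± 11.2 points). At chr9:102655655-102667510 they ran from 1.82 to 28.3 and from 69.7 to 99.8, and in nodules from 67.2 to 93.0 other than 6.82 in HCC 124711. In equal lists these 3 differences were 66.4, 64.5 and 59.5 points, with 1 WT liver set to 0 at the first and 1 at the third.

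Downward, chr6:91580772-91588600 had percentiles of 54.7, 78.0, 67.6, 69.6 and 56.9 in WT livers. Inflamed livers had 17.1, 13.4, 1.48, 20.6 and 2.57, and nodules 31.0, 74.1, 21.4, 7.79 and 55.4. WT and inflamed livers did not overlap, and nodules again took values of both. The difference was -54.3 ± 10.3 points (SE; limma, adjusted p = 0.00539), and its peaks were narrower too, 1834 to 2483 bp against 3550 to 7829 bp (adjusted p = 0.0118). At chr5:65538734-65544519 and chr3:97905875-97914539 the differences were -52.1 ± 10.4 and -50.1 ± 10.9 points. At both, WT 130748 was the lowest WT liver and inflamed 148990 the highest inflamed liver, 58.9 against 57.8 at the former and 71.6 against 63.7 at the latter. The gap between groups therefore rested on narrow margins there. In equal lists 5, 4 and 3 of the 5 inflamed livers were set to 0 at these 3 members, so the differences there, -63.0, -73.6 and -72.4 points, depend on that floor in size and order and lend no support to the calls.

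**Figure D4:**
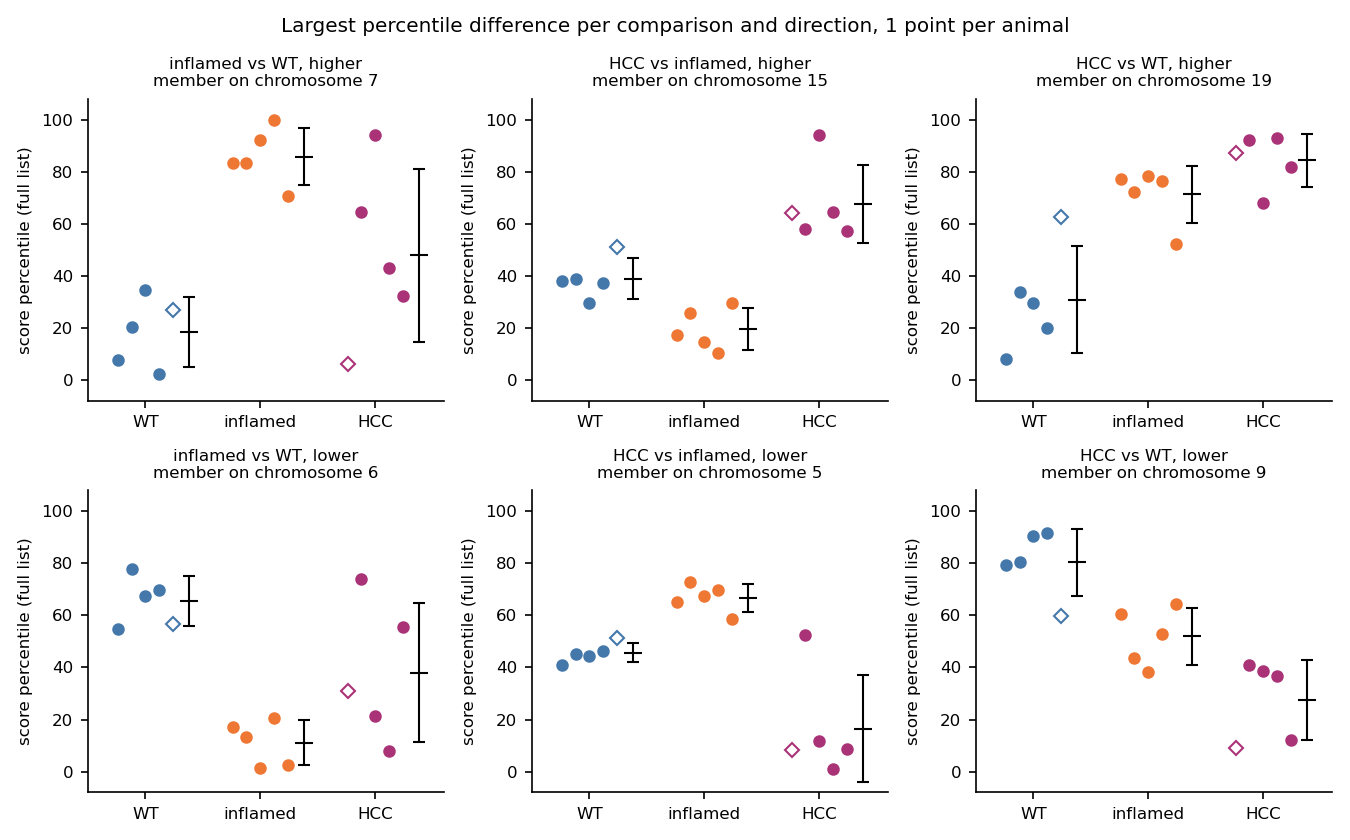
Score percentile within the full list of each animal in the member with the largest called difference per comparison (columns) and direction (upper row higher, lower row lower in the first-named group), with 1 point per animal, open diamonds for WT 130748 and HCC 124711, and the mean with SD of each group of 5 as a black bar. At the chromosome 7 member WT livers lie at 2.18 to 34.7 and inflamed livers at 70.7 to 99.7, with nodules from 6.00 to 94.0.

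Few members were called between HCC nodules and inflamed livers, which does not show that the others were alike. The widest peak was wider in nodules in 47 members and narrower in 20 (limma, adjusted p below 0.05), 0.702% of members where 0.91% of common regions were called (0.606% wider and 0.303% narrower). Centring gave 49 and 54 (1.35% of common regions), leaving out WT 130748 and HCC 124711 gave 237 and 44 (3.5%), and both together 128 and 142 (3.37%). The animals did not overlap in 211 members with wider peaks in every nodule (2.21% of members, 2.74% of common regions). They did not overlap in 117 with narrower peaks (1.23% of members, 1.32% of common regions). For the score percentile only 4 members were higher and 12 lower (0.168% of common regions, 0.0505% higher and 0.118% lower), and all 16 were called in equal lists as well, which gave 35 and 30 (0.648%), of which 19 and 10 had at least 1 animal set to 0. Without WT 130748 and HCC 124711 the counts were 58 and 41 in full lists (0.606 and 0.43% of common regions) and 168 and 165 in equal lists (3.34%). In full lists every nodule ranked above every inflamed liver in 41 members (0.429% of members, 0.438% of common regions). Every nodule ranked below in 159 (1.66% of members, 1.59% of common regions). These counts do not cover equal lists. Leaving out 1 animal at a time gave 15 to 150 members called for width and 0 to 70 for the percentile. In a limma fit of these 2 groups alone the percentile passed in 0 members and in 0 of all common regions, with 832 members at an unadjusted p below 0.05 (8.72% of common regions), and the width passed in 37 (0.556%).

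Among the widened members, chr6:90545431-90558065 had peaks of 5479, 3508, 3360, 2641 and 3937 bp in inflamed livers. Nodules had 11044, 10035, 9860, 11134 and 12425 bp, and WT livers 9693, 12610, 6471, 9813 and 11699 bp. Nodules and WT livers overlapped, and the inflamed livers lay below both. The log2 difference between nodules and inflamed livers was 1.56 ± 0.21 (SE; limma, adjusted p = 0.00365). Inflamed livers other than 148998 held 2 peaks there. With all peaks summed this difference was smaller, 0.92 (limma, adjusted p = 0.0305). The largest difference, 1.61 ± 0.34 at chr2:126246737-126257186 (adjusted p = 0.0404), separated nodules at 5779 to 10450 bp from inflamed livers at 1288 to 5710 bp, with inflamed 148990 next to the nodules. This call was lost with all peaks summed, with width in bp and in the fit of these 2 groups alone (limma, adjusted p = 0.122, 0.0575 and 0.101). At chr10:126947906-126960633 nodules had peaks of 7098 to 12324 bp and inflamed livers 2 peaks each with the wider at 3429 to 3566 bp (1.59 ± 0.31, adjusted p = 0.028), and the score was the tied top score in all animals other than HCC 123390. This call was lost with mean peak width and with width in bp (limma, adjusted p = 0.0645 and 0.0663). The calls at these 2 members were lost on leaving out 11 and 8 of the 15 animals in turn.

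Among the narrowed members, chr3:51511011-51518389 held 1 peak per animal. It was 6969, 7076, 7379, 7083 and 7135 bp wide in inflamed livers and 2177, 2765, 3293, 2941 and 3197 bp in nodules. WT livers had 7170, 6947, 6990, 6579 and 2988 bp. All nodules were narrower than all inflamed livers, and of the WT livers only WT 130748 had a width in the nodule range. The log2 difference was -1.33 ± 0.21 against inflamed livers (SE; limma, adjusted p = 0.0111) and -1.04 ± 0.21 against WT livers (adjusted p = 0.0339). At chr2:154214039-154226467 a peak of 10987 to 12011 bp in inflamed livers stood against 2626 to 6898 bp in nodules and 3075 to 4614 bp in WT livers. Summing all its peaks ended the call (adjusted p = 0.422), and the nodules other than HCC 124711 held 2 or 3 peaks there. At chr3:151923377-151930419 the call was marginal (-1.19 ± 0.27, adjusted p = 0.0492) and was lost on leaving out 12 of the 15 animals in turn, and without WT 130748 and HCC 124711 together. No base of this member was under a peak in all 15 animals.

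By percentile, chr15:78822854-78829549 ranked higher in every nodule than in every inflamed liver. Inflamed livers had 17.5, 25.8, 14.8, 10.3 and 29.8, and nodules 64.3, 57.9, 94.0, 64.7 and 57.4. WT livers, at 29.6 to 51.3, lay between, overlapping the inflamed livers only at 29.6 and 29.8. The difference was 48.1 ± 7.66 points (SE; limma, adjusted p = 0.0342), and the peak was wider too (log2 difference 1.11 ± 0.18, adjusted p = 0.012). The next were chr13:36049681-36062559 (45.8 ± 8.98 points, adjusted p = 0.045), where the animals' peaks shared no base, and chr17:29549090-29563426 (35.3 ± 6.89 points, adjusted p = 0.045), described above for its width. In equal lists these 3 differences were 60.1, 58.6 and 54.0 points, but 4, 2 and 1 of the 5 inflamed livers were set to 0 there, so their size depends on that floor. In the other direction, chr5:116314401-116320119 had percentiles of 65.3, 72.7, 67.4, 69.7 and 58.6 in inflamed livers and 8.32, 52.5, 11.8, 1.07 and 8.56 in nodules. HCC 125278 was just above the WT livers at 41.1 to 51.3, and the other 4 nodules were below them. The difference was -50.3 ± 8.24 points (adjusted p = 0.0342). At chr16:45091737-45100412 percentiles of 79.8 to 93.9 in inflamed livers stood against 22.8 to 66.5 in nodules, and at chr5:72887978-72891576 67.3 to 79.9 against 15.8 to 42.7. WT livers had 36.6 to 60.9 at the former and 23.1 to 69.0 at the latter, overlapping the nodules at both. At the former, inflamed livers also ranked above WT livers (40.2 ± 8.13 points, limma adjusted p = 0.00707). The differences between nodules and inflamed livers in equal lists were -44.5, -54.1 and -45.1 points at these 3 members, with 2, 0 and 1 of the 5 nodules set to 0. Each of these 6 calls in full lists was lost on leaving out 9 to 12 of the 15 animals in turn, with adjusted p from 0.000233 to 0.184 over all of them.

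HCC nodules and WT livers, of the same age range by the labels, were called different in width in 60 members. Peaks were wider in nodules in 23 and narrower in 37 (limma, adjusted p below 0.05), 0.628% of members where 0.842% of common regions were called (0.379% wider and 0.463% narrower). Centring gave 76 and 87 (2.19% of common regions), leaving out WT 130748 and HCC 124711 gave 189 and 104 (3.55%), which turned the balance, and both together 240 and 253 (6.07%). The animals did not overlap in 61 members with wider peaks in every nodule (0.639% of members, 0.724% of common regions). They did not overlap in 103 with narrower peaks (1.08% of members, 1.13% of common regions). The percentile was higher in 102 members and lower in 27 (1.46% of common regions, 1.18% higher and 0.278% lower). In equal lists it was higher in 66 and lower in 82 (1.58%), with the 66 and 27 called in both, and 12 of the 66 and 37 of the 82 had at least 1 animal set to 0. Without WT 130748 and HCC 124711 the counts were 858 and 148 in full lists (8.44 and 1.57% of common regions) and 335 and 319 in equal lists (6.62%). In a limma fit of these 2 groups alone the percentile passed in 0 members and in 1 of all common regions (0.00842%). An unadjusted p below 0.05 was reached by 918 members (9.57% of common regions). The width passed in 11 members (0.143% of common regions). Each percentile call named below therefore rests on the fit of all 3 groups. In full lists every nodule ranked above every WT liver in 98 members (1.03% of members, 1.05% of common regions). Every nodule ranked below in 60 (0.628% of members, 0.632% of common regions). These counts do not cover equal lists. Leaving out 1 animal at a time gave 22 to 241 members called for width and 20 to 782 for the percentile.

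At chr15:57845984-57856315, 1 peak per animal was wider and stronger in both kinds of Mdr2-KO tissue than in WT liver. WT peaks were 3022, 3076, 2794, 3473 and 4781 bp wide. Inflamed peaks were 7827, 8155, 8139, 6012 and 8501 bp and nodule peaks 7667, 8928, 10332, 8436 and 8787 bp. WT livers lay apart from both, with no overlap. The log2 difference from WT was 1.39 ± 0.16 in nodules (SE; limma, adjusted p = 0.000505) and 1.19 ± 0.16 in inflamed livers (adjusted p = 0.00202). Percentiles were 22.7 to 58.0 in WT livers, 91.7 to 99.6 in inflamed livers and 84.6 to 94.0 in nodules, a difference of 51.0 ± 6.53 points for nodules (adjusted p = 0.00192). The width between nodules and inflamed livers did not pass the test (adjusted p = 0.732).

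Another pattern was found at chr17:29057361-29069909, where nodules alone were wide. Nodule peaks were 9738, 8264, 12231, 8582 and 8376 bp wide. WT peaks were 3576, 3742, 3595, 2910 and 3856 bp, and inflamed peaks 4593, 3771, 2884, 2866 and 4276 bp. Every nodule exceeded every WT and inflamed liver. The log2 difference was 1.41 ± 0.16 against WT (SE; limma, adjusted p = 0.000505) and 1.37 ± 0.16 against inflamed livers (adjusted p = 0.00102). The percentile did not pass in either comparison (adjusted p = 0.675 and 0.945). WT 130748 and 4 of the 5 inflamed livers held 2 peaks there, and their summed lengths of 5618 to 7703 bp came closer to the nodules' 8376 to 12231 bp. At chr19:6526490-6535690 nodule peaks were 4785 to 8992 bp, inflamed peaks 2723 to 4934 bp and WT peaks 2222 to 4234 bp. Nodules differed from WT livers there in width (1.37 ± 0.21, limma adjusted p = 0.00608) and in percentile, by 53.6 ± 8.91 points (adjusted p = 0.00996). A like rise in percentile was seen at chr19:44365636-44373450 (52.9 ± 8.26 points, adjusted p = 0.00944). In equal lists the differences between nodules and WT livers were 52.9 and 54.2 points at these chromosome 19 members and 52.6 points at chr15:57845984-57856315, with no WT liver or nodule set to 0 (limma, adjusted p = 0.0217, 0.00822 and 0.0031). Inflamed livers also ranked above WT livers at the chromosome 19 members, by 40.4 and 43.0 points in full lists (limma, adjusted p = 0.0108 and 0.00556). In equal lists this was 32.4 and 35.5 points (adjusted p = 0.072 and 0.0277). The percentile of nodules against inflamed livers did not pass at either (adjusted p = 0.551 and 0.606 in full lists).

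The clearest narrowing was at chr11:79035894-79045951. WT livers had 1 peak of 8818, 9812, 9770, 8842 and 8642 bp. Inflamed livers had 2 peaks each, the wider of 3583, 3524, 3708, 3526 and 3726 bp. Nodules had 2845, 3445, 3437, 3683 and 3926 bp, as 2 peaks in all but HCC 123390. The WT peaks lay apart from those of all 10 Mdr2-KO animals, WT 130748 included. The log2 difference was -1.41 ± 0.10 for nodules (SE; limma, adjusted p = 9.3e-06) and -1.34 ± 0.10 for inflamed livers (adjusted p = 1.83e-05). The summed length was 8642 to 9812 bp in WT livers and 6825 to 7081 bp in inflamed livers, a smaller gap than that of the widest peak. In nodules it was 5593 to 6941 bp, other than 3926 bp in HCC 123390 with its 1 peak. At chr8:125678531-125689003 WT peaks of 6087 to 9774 bp stood against 1916 to 3541 bp in nodules (-1.69 ± 0.18, adjusted p = 0.000222), and at chr7:146618477-146629408 5900 to 10796 bp against 1612 to 3801 bp (-1.88 ± 0.25, adjusted p = 0.00245). Inflamed livers were narrower than WT livers at both as well, with 3069 to 3782 bp and 2949 to 4628 bp (limma, adjusted p = 0.00173 and 0.0322). The width of nodules against inflamed livers did not pass at either (adjusted p = 0.519 and 0.187). Lower percentiles in nodules were largest at chr9:95438611-95445628, from 59.7 to 91.6 in WT livers to 9.22 to 40.8 in nodules (-52.8 ± 8.34 points, adjusted p = 0.00944). Inflamed livers had 38.4 to 64.2 there (-28.3 ± 8.34 points against WT livers, limma adjusted p = 0.0424). The next lower percentiles in nodules were at chr8:26135733-26140019 (-44.4 ± 8.89 points) and chr4:106625421-106636063 (-43.8 ± 8.65 points), and these 2 calls were lost without WT 130747, WT 129297 or HCC 123206, the former also without WT 129296. The percentile of inflamed against WT livers did not pass at these 2 members (limma, adjusted p = 0.191 and 0.221). In equal lists the difference between nodules and WT livers was -68.3 points at the chromosome 9 member, with no WT liver or nodule set to 0 (limma, adjusted p = 0.0031). It was -54.8 and -57.5 points at the other two, where 2 nodules each were set to 0.

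**Figure D5:**
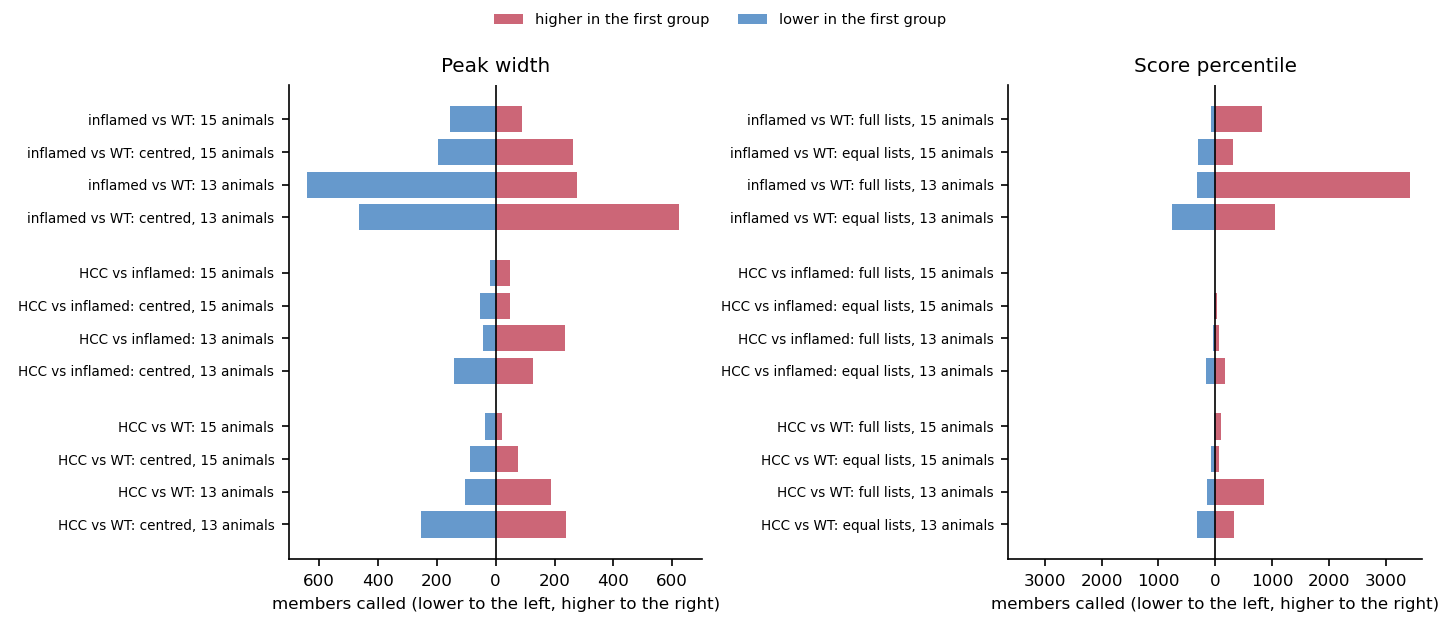
Members called at an adjusted p below 0.05 (limma), with those lower in the first-named group to the left of 0 and those higher to the right, for peak width (left) and score percentile (right), in 15 animals or in the 13 without WT 130748 and HCC 124711, with and without centring of widths or equal list lengths. Inflamed against WT livers gives the longest bars in each setting, and its excess of higher percentiles in full lists (824 against 76) stands beside 318 against 311 in equal lists of 15 animals, in which peaks beyond the list length are set to 0, and 1061 against 758 in equal lists of 13 animals.

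Among called members, some had several peaks in an animal. A single peak in every animal was found in 46.2% of the members that were wider and 52.2% of those narrower in inflamed than in WT livers, beside 66.67% of all members. The called members had median merged widths of 8909 and 8375 bp, beside 6019.5 bp for all members. When all peaks of a member were summed, 73 of the 91 wider and 117 of the 157 narrower members remained called. For the percentile a single peak in every animal was found in 61.3% of the 824 members with a higher rank in inflamed livers. How far the merged width of a member otherwise bears on its calls was not tested.

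The median gap from a member to the nearest other member was 26170 bp, and from another merged region that is not broad to the nearest member 53881 bp. A member was within 10000 bp of 27.9% of members and of 18.3% of those other regions. A broad region was within 10000 bp of 9.13% of members and of 5.99% of the other merged regions.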

How the data were processed

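The authors immunoprecipitated H3K27Ac from fixed liver tissue, sequenced 36 bp single reads and called peaks separately for each animal. The submitters' processing notes name Bowtie 0.12.7, MACS 1.4 and mm9. The control used for each list is not given in the sources used here. Each deposited list holds the position of every peak and the peak caller's score, between 50 and 3233.06, whose scale is not given in the sources used here. Read counts were not used here, so the depth of each library is unknown and no counting interval can be given, and a longer list may come from deeper sequencing. A control sample of WT liver, input by its title and IgG by its description, was not analysed here. Groups and animal numbers come from the sample labels. The limma p-values of the main fit set a difference against the spread among the 5 animals within each group, pooled over all 3 groups. Each of them therefore also includes the spread of the group that is not compared. The study's methods state that mice of both sexes were used, and the labels do not give the sex of each animal. Whether the sexes were balanced between groups is therefore unknown here.

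Peaks of all 15 lists on chromosomes 1 to 19 were merged, with an overlap of at least 1 bp counting as presence. Width was log2 of the widest peak of an animal in a region, and the percentile the mid-rank of its best score in the whole list. Both were fitted in R 4.3.3 with limma 3.58.1 (mean-variance trend, all 15 animals, no covariates, 3 contrasts) over all 11874 common regions, with Benjamini-Hochberg adjustment and calls at an adjusted p below 0.05. Other steps used Python 3.11.15, NumPy 2.4.6, pandas 2.3.3, SciPy 1.17.1 and matplotlib 3.10.9. Regions were named by rule: per contrast, measure and direction the 3 largest differences among called members whose groups do not overlap, and the 3 members at each end of percentile, core share and the width limit. On simulated data for inflamed against WT, with 11874 regions, 65 of 100 planted log2 width differences of 1 and 25 of 100 of 0.5 were recovered, and 25 of 100 percentile differences of 20 points and 11 of 100 of 10 points, with 5 and 3 other regions called. The members, lists and tests were chosen with earlier results of these data known. Planned gene lists, cell type markers and annotation need a genome of mm9 and were not run. The alternatives were summed or mean peak width, width in bp, centring, equal lists (the best 26390 peaks of each animal, with members ranked beyond them set to 0), ranks among common regions, ties at the lowest rank, no trend, an exact permutation test per region, all merged regions (with 1 bp added before the log), scores of at least 100, chromosome X, peaks covering at least 50% of a region, limits of 10000 and 20000 bp, and leaving out animals.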

Additional observations from a re-analysis of the deposited data

Results flagged for a closer look

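Of 102 groups of 5 animals examined, 14 held an animal whose gap to the nearest other exceeded 0.71 of the group's range. Chance flags about 1 in 20 groups of independent samples, a rate that does not apply to this set, since most of the groups are members picked for groups that do not overlap and several share the ranks of the same libraries. WT 130748 stood apart from the other WT livers in the median percentile of members (87.5343), in the same median in equal lists (86.3945) and in the share of members at the top score (50.8272%).

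For peak width, WT 129296 was far above the other WT livers at chr19:12544677-12553980 (2857 bp) and at chr10:76667284-76681630 (8641 bp). At chr17:29549090-29563426 both WT 134501 (14337 bp) and inflamed 148990 (3162 bp) were far above their groups. HCC 125279 was far above the other nodules at chr3:151923377-151930419 (5976 bp), and WT 130748 far below the other WT livers at chr8:125678531-125689003 (6087 bp).

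For the score percentile, inflamed 149198 was high at chr9:102655655-102667510 (99.76) and inflamed 148990 low at chr16:45091737-45100412 (79.75). WT 130748 was low at chr3:97905875-97914539 (71.56). HCC 125279 was high at chr15:78822854-78829549 (93.96) and HCC 125278 at chr5:116314401-116320119 (52.49). Why these animals differed was not tested. Chromosome X, which the comparisons did not use, held 225 regions that met the same rule.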

How the results depend on the processing

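Counts below are members called, inflamed against WT, nodules against inflamed and nodules against WT in this order. For width (248, 67 and 60), summed peaks gave 405, 102 and 128, mean width 163, 36 and 35, and centring 458, 103 and 163. Peaks covering at least 50% of a region gave 69, 9 and 6, and a limit of 10000 bp 164, 41 and 39. Width in bp gave 37 and all merged regions 106 for nodules against inflamed, and scores of at least 100 gave 43 and 33 for the nodule comparisons. For the percentile (900, 16 and 129), equal lists gave 65 and 148 for the nodule comparisons, ranks among common regions 653, 30 and 133, and coverage of at least 50% 234, 0 and 14. Ties at the lowest rank gave 1358 and 4 for the first 2, no trend 43 and 211 and scores of at least 100 gave 0 and 84 for the nodule comparisons, and all merged regions 134 for nodules against inflamed. For width the balance of higher and lower calls turned with centring, which moves all regions of an animal alike (inflamed against WT, nodules against inflamed). It turned with width in bp for nodules against inflamed and with summed peaks for nodules against WT. For the percentile the balance turned with equal lists (both nodule comparisons) and common ranks (inflamed and nodules against WT). It also turned without inflamed 149199 or HCC 124711 for width and without HCC 125278 for the percentile, in the nodule comparisons.

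Without WT 130748 and HCC 124711 widths gave 918, 281 and 293, with centring 1087, 270 and 493. Percentiles gave 3756, 99 and 1006, with equal lists 1819, 333 and 654 and with common ranks 1949, 311 and 729. Without both libraries the balance also turned for width in nodules against WT and for the percentile in nodules against inflamed livers. The settings that join the missing pair with centring, equal lists or common ranks were chosen after seeing the data, as were fits of the 2 groups compared, which gave 853, 37 and 11 for width and 2324, 0 and 0 for the percentile, with 832 and 918 at an unadjusted p below 0.05 for the 2 counts of 0 (limma). The exact permutation test gave 0 for each, which says nothing about stability: the smallest p that 5 against 5 animals allow is 0.00794, 1885 of the 11874 common regions would have to reach it to pass the adjustment, and 200 to 1682 did. For inflamed against WT the smallest adjusted p of this permutation test was 0.0635 for width and 0.056 for the percentile. At an unadjusted p below 0.05 it gave 2447, 1049 and 697 for width and 4689, 841 and 879 for the percentile. The percentile counts of 0 at scores of at least 100 and at coverage of at least 50% had 795 and 419 at an unadjusted p below 0.05.

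Leaving out each animal in turn gave 78 (without inflamed 149198) to 492 (without HCC 124711), 15 (without inflamed 149199) to 150 (without HCC 124711) and 22 (without WT 129296) to 241 (without HCC 124711) for width. It gave 312 (without inflamed 149198) to 2705 (without WT 130748), 0 (without 7 of the animals) to 70 (without HCC 125279) and 20 (without WT 129297) to 782 (without WT 130748) for the percentile. The number of members was 9564 to 11045 when an animal was left out and 4721 with coverage of at least 50%. Of 36 named results none changed sign, 25 kept their call without each animal in turn and 11 lost it at least once. The causes were not tested.

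No paired analysis was possible because the groups share no animal numbers. The limits are those of peak lists: depth is unknown, tied top scores cannot be ordered, widths depend on whether the caller joined neighbouring peaks, and age differs between inflamed livers and the other groups.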
